A study of Mus musculus with 4 samples.

Results

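Kupffer cells, the resident macrophages of the liver, were followed through 10 marker genes: Clec4f, Cd5l, Marco, C1qa, C1qb, C1qc, Csf1r, Cd163, Lyz2 and Cd68. The genes were taken by name from the gene table of each mouse, and 9 of the 10 were among the 8797 genes listed. Marco, a macrophage scavenger receptor, was not listed, so no expression or frequency of it is given. A B6-allele frequency was given for 3 of the 9 genes (Csf1r, Cd163 and Lyz2), against 3632 of all 8797 genes, or 41.3%. The samples were homogenized pieces of liver of 4 female mice at 5 months of age, all F1 hybrids between the inbred strains B6 and MSM. In 2 mice the mother was MSM and the father B6, and in the other 2 the mother was B6 and the father MSM. Thus all 4 mice carried the same pair of genomes, and the crosses differed in which parent had given which genome. Poly(A) RNA was sequenced as 150-bp read pairs, and each gene had an expression value in FPKM (fragments scaled for transcript length and library size) and, where alleles could be told apart, a B6-allele frequency, which is the B6 share of the reads assigned to an allele.

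Kupffer cells line the sinusoids, where they take up bacteria, debris and aged red cells from portal blood. Clec4f, a C-type lectin receptor, is largely restricted to Kupffer cells in the mouse, and Cd5l, a secreted scavenger-receptor protein also called AIM, is made by tissue macrophages, with Kupffer cells among the strongest sources. C1qa, C1qb and C1qc encode the chains of C1q, which starts the classical complement pathway and is made mainly by macrophages rather than hepatocytes. Csf1r is the receptor for CSF1 and IL-34, on which macrophage survival depends. Cd163 takes up hemoglobin bound to haptoglobin. Lyz2 encodes the lysozyme of myeloid cells, and Cd68 encodes a glycoprotein of the macrophage lysosome. Lyz2, Cd68 and Csf1r are also used by monocytes, so the set marks macrophages in general with a Kupffer-cell core. Because bulk tissue was sequenced, fewer cells of a type and less RNA per cell cannot be told apart.

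Promoter sequences are shown for C1qb and C1qc, which are neighbours with closely similar levels, for Cd68, which had the largest difference between the crosses, and for Lyz2 with its neighbour Lyz1, whose reads were assigned mostly to opposite alleles. They were taken from RefSeq for the GRCm38.p6 assembly, read 5′ to 3′ on the minus strand, on which all 5 genes lie, and end at the gene start in RefSeq or, for C1qc and Lyz2, where the longer gene model of GENCODE begins. Capitals mark 2 motifs that were chosen after the sequences had been seen, GGAAGT or its complement ACTTCC (a core recognised by the myeloid factor PU.1) and TGANTCA (a core recognised by AP-1 factors), searched on both strands in 250 bases before the gene start. The stretches were chr4:136886201-136886450 for C1qb, chr4:136893066-136893164 for C1qc, chr11:69666171-69666420 for Cd68, chr10:117282322-117282522 for Lyz2 and chr10:117292869-117293118 for Lyz1.
C1qb: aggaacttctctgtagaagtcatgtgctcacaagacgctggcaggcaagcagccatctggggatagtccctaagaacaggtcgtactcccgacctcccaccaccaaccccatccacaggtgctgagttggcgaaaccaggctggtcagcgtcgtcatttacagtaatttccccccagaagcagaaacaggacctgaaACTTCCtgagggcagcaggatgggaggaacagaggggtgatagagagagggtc
C1qc: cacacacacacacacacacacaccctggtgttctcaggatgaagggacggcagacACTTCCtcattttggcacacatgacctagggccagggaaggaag
Cd68: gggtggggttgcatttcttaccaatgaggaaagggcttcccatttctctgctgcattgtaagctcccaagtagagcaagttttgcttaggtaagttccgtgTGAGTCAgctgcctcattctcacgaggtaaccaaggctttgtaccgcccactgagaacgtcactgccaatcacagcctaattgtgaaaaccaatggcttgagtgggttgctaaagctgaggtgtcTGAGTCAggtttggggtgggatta
Lyz2: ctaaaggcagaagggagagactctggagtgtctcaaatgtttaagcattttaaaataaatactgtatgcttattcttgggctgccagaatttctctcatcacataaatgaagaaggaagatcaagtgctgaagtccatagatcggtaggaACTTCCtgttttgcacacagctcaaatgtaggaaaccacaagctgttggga
Lyz1: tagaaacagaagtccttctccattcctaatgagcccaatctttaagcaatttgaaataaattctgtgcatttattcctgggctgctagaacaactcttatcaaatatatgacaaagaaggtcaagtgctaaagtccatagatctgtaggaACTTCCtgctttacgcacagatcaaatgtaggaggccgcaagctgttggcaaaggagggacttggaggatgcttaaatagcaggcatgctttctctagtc

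Of 8 markers searched, Marco included, 4 (Clec4f, C1qb, C1qc and Lyz2) held GGAAGT within 250 bases of the RefSeq start. This motif was present in 19.7% of all 32851 promoters of this length. Csf1r was not searched and C1qa had no promoter entry, so the count does not cover all markers. The Clec4f site began 33 bases before the RefSeq start, which lies inside the longer GENCODE gene model. Cd68 alone held TGANTCA, at 2 places, against 6.75% of all promoters. No stretch held both motifs, so no sites of the 2 kinds overlapped. The Lyz2 and Lyz1 promoters had 200 identical bases in 248 aligned bases (80.6%). In both, the GGAAGT site began 100 bases before the gene start in RefSeq. The Lyz2 stretch printed above ends before that start, at the GENCODE gene model. These matches describe the reference sequence, and binding was not measured.

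Most of the markers were well expressed, and they fell into 3 levels. On the FPKM scale, C1qb was the highest with a mean of 45.7 ± 7.90 (SD over 4 mice), followed by Cd5l with 44.0 ± 11.1, C1qc with 43.9 ± 7.02, Clec4f with 41.8 ± 4.46, C1qa with 39.7 ± 5.15 and Lyz2 with 37.7 ± 6.28. The ranges of these 6 genes overlapped between all neighbours in the order, so their order is not resolved by 4 mice. Csf1r lay lower, at 16.0 ± 4.02, without overlap with Lyz2. Cd68 at 7.05 ± 2.11 was lower again, without overlap with Csf1r, and Cd163 at 6.23 ± 1.09 overlapped Cd68. Among all 8797 genes the upper 6 markers lay at percentiles 78.9 to 82.2 of mean FPKM, Csf1r at percentile 60.2, Cd68 at 33.6 and Cd163 at 29.0. Summed over the 9 genes, the markers made 272.8 and 230.8 FPKM in replicates 1 and 2 with an MSM mother, and 327.6 and 296.8 FPKM in replicates 1 and 2 with a B6 mother. These sums were 0.0406%, 0.0428%, 0.0619% and 0.0518% of the FPKM of all listed genes in the same mice, so the share was higher in both mice with a B6 mother.

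**Figure D1:**
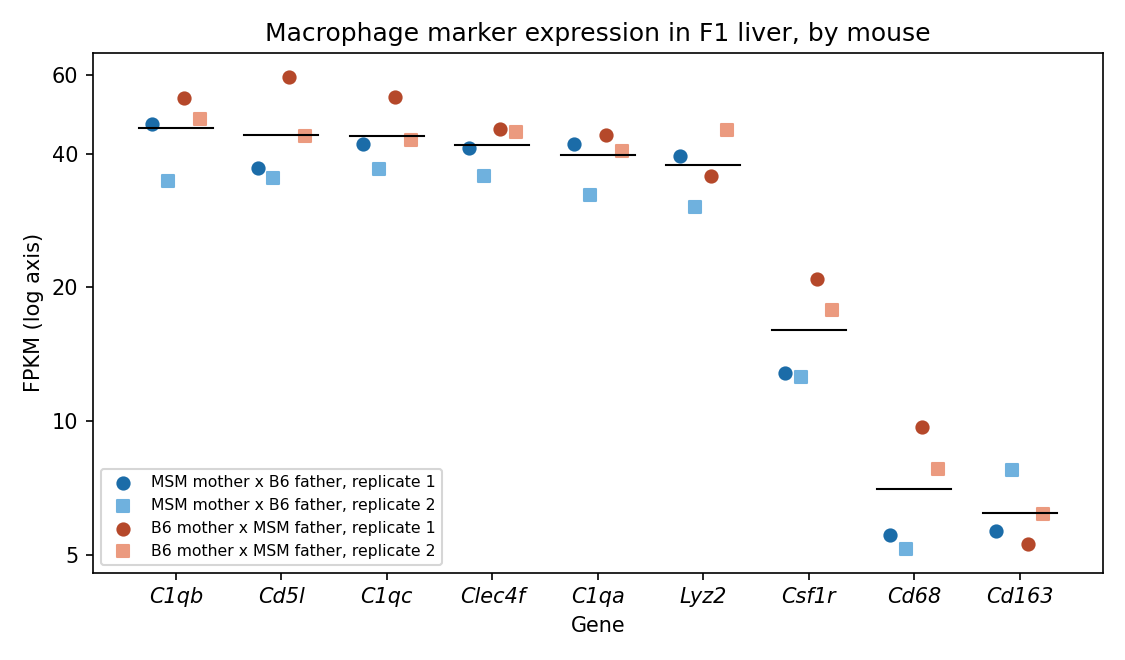
Expression of the 9 listed macrophage markers in each mouse, in FPKM on a log axis, ordered by mean; circles and squares are replicates 1 and 2, blue is an MSM mother, red a B6 mother, and the bar is the mean over 4 mice. For Csf1r and Cd68 both red points lie well above both blue points (17.8 and 20.9 against 12.6 and 12.8 FPKM for Csf1r), whereas C1qa, Cd163 and Lyz2 overlap.

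Between the reciprocal crosses, 6 of the 9 markers had both mice with a B6 mother above both with an MSM mother (Clec4f, Cd5l, C1qb, C1qc, Csf1r and Cd68), and 0 had both below. Of all listed genes, 19.4% were above without overlap and 23% were below. The count was 6 after median-ratio scaling of the mice (21.1% of all genes above) and 8 after quantile normalization (21.8%). When each mouse was left out in turn, it was 6 to 8, while 27.2% to 36.9% of all genes were above, and 1 marker was below without replicate 1 with an MSM mother and without replicate 2 with a B6 mother. The median log2 fold change of the markers (B6 mother minus MSM mother, on log2(FPKM + 1)) was 0.28, against -0.02 over all genes, and 8 of 9 were positive. No single marker passed the test: with limma and Benjamini-Hochberg adjustment over 8797 genes, 0 of 9 were called at an adjusted p-value under 0.05, and 3 of 9 (Cd5l, Csf1r and Cd68) had an unadjusted p-value under 0.05, all higher with a B6 mother. Of all genes, 8.87% had such a p-value, and 4.41% were also higher with a B6 mother. The same limma test called 4 of 8797 genes (0.0455%), all higher with a B6 mother. These 4 (Cyp2e1, Mup9, Snord104 and Mir1957b) were listed at 0 in both mice with an MSM mother. Cyp2e1 and Mup9 nevertheless had a B6-allele frequency there (0.516 and 0.546 for Cyp2e1, 0.548 and 0.667 for Mup9). Reads were thus assigned to these genes in those mice, and the 0 does not mean an absence of reads. An exact permutation test of 2 mice against 2 cannot give a p-value below 0.333, so none was run, and limma shares the estimate of the variance across genes.

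The Kupffer-cell genes Clec4f and Cd5l differed in how evenly they were expressed. Clec4f had 41.2 and 35.7 FPKM with an MSM mother and 45.4 and 44.8 FPKM with a B6 mother. Its SD over the 4 mice was the smallest of the upper 6 markers, and its group means were 1.17-fold apart, with a log2 fold change of 0.23 (SE 0.13, 95% interval -0.10 to 0.56, limma adjusted p = 0.625). Cd5l had 37.1 and 35.3 FPKM with an MSM mother and 59.6 and 43.8 FPKM with a B6 mother. Replicate 1 with a B6 mother was far above the other 3 mice. The group means were 1.43-fold apart, with a log2 fold change of 0.49 (SE 0.18, 95% interval 0.05 to 0.92, limma adjusted p = 0.534). Within a mouse, the ratio of Cd5l to Clec4f FPKM was 0.899 and 0.9897 with an MSM mother, against 1.31 and 0.977 with a B6 mother, so only that 1 mouse had clearly more Cd5l than Clec4f.

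The C1q genes lie side by side on chromosome 4, all on the minus strand, with C1qb at chr4:136880129-136886187, C1qc at chr4:136889804-136893065 and C1qa at chr4:136895917-136898803 in mm10. C1qa had 42.0 and 32.3 FPKM with an MSM mother and 44.0 and 40.5 FPKM with a B6 mother, and the crosses overlapped. C1qb had 46.8 and 34.7 FPKM, and then 53.4 and 47.8 FPKM. C1qc had 42.0 and 37.0 FPKM, and then 53.7 and 43.0 FPKM. For each of the 3 chains, replicate 2 with an MSM mother was the lowest mouse and replicate 1 with a B6 mother the highest. The log2 fold changes were 0.19 for C1qa, 0.32 for C1qb and 0.28 for C1qc, each with an SE between 0.16 and 0.18 and limma adjusted p-values of 0.705, 0.622 and 0.625. Their 95% intervals ran from -0.22 to 0.60, from -0.12 to 0.76 and from -0.12 to 0.68. With 1 mouse left out, the log2 fold change ranged from 0.0052 to 0.38 for C1qa, from 0.11 to 0.53 for C1qb and from 0.12 to 0.44 for C1qc. The chains, which are assembled in equal numbers in the C1q protein, were also close to equal in FPKM within each mouse. The ratio of C1qb to C1qa was 1.11 and 1.07 with an MSM mother, against 1.22 and 1.18 with a B6 mother, and that of C1qc to C1qa lay between 0.999 and 1.22 over the 4 mice.

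Csf1r and Cd68 showed the widest separation of the crosses. Csf1r (chr18:61100598-61132149, plus strand) had 12.8 and 12.6 FPKM with an MSM mother and 20.9 and 17.8 FPKM with a B6 mother, 1.52-fold apart in the group means. Its log2 fold change was 0.56 (SE 0.12, 95% interval 0.26 to 0.87), with an unadjusted p of 0.00434 and an adjusted p of 0.354 by limma. Cd68 (chr11:69664213-69666153, minus strand) had 5.55 and 5.16 FPKM and then 9.68 and 7.82 FPKM, 1.63-fold apart. Its log2 fold change was 0.61 (SE 0.13, 95% interval 0.28 to 0.94), with an unadjusted p of 0.00412 and the same adjusted p of 0.354 by limma. The 95% interval of each gene excluded 0 before the correction for 8797 tests, and neither gene passed it. Relative to Clec4f in the same mouse, Csf1r was 0.311 and 0.353 with an MSM mother, against 0.459 and 0.397 with a B6 mother, and Cd68 was 0.134 and 0.145 and then 0.213 and 0.175. Hence both genes differed between the crosses without overlap also when set against Clec4f, which is more specific to Kupffer cells. The ratios of Cd5l, Cd163 and Lyz2 to Clec4f overlapped, and the share of all genes with separate ratios was not computed.

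Cd163 and Lyz2, like C1qa, overlapped between the crosses. Cd163 (chr6:124304656-124330527, plus strand) had 5.65 and 7.77 FPKM with an MSM mother and 5.30 and 6.19 FPKM with a B6 mother, and its log2 fold change of -0.18 (SE 0.17, 95% interval -0.59 to 0.23, limma adjusted p = 0.716) was the only negative one. Its highest mouse, replicate 2 with an MSM mother, was the lowest mouse for all 8 other markers. Relative to Csf1r in the same mouse, Cd163 was 0.441 and 0.617 with an MSM mother, against 0.254 and 0.348 with a B6 mother, without overlap. Csf1r alone was already separate between the crosses, and no share over all genes was computed for such ratios. Lyz2 (chr10:117277331-117282321, minus strand) had 39.6 and 30.3 FPKM with an MSM mother and 35.6 and 45.2 FPKM with a B6 mother, so its extremes lay in replicate 2 of each cross. Its log2 fold change was 0.21 (SE 0.19, 95% interval -0.26 to 0.67, limma adjusted p = 0.718), and 0.019 to 0.39 with 1 mouse left out.

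Further macrophage genes were compared in the same mice. Of 14 further genes of resident macrophages, 11 were listed, and 7 of them were above without overlap and 0 below. Vsig4, the complement receptor of Kupffer cells, had 25.8 and 24.3 FPKM with an MSM mother and 28.3 and 37.1 FPKM with a B6 mother. Timd4, a receptor for dying cells, had 2.205 and 2.017 FPKM and then 3.855 and 3.005 FPKM. No listed gene had a mean under 2.50 FPKM, so Timd4 was listed only through its mice with a B6 mother. Its place among the genes above is therefore partly set by the listing. Slc40a1 (the iron exporter ferroportin, 85.7 to 113.3 FPKM over the 4 mice) and Hpgd (83.8 to 110.2 FPKM), the highest genes of this list, overlapped between the crosses, whereas Ctsc, a lysosomal protease, had 71.1 and 69.5 FPKM and then 99.9 and 84.3 FPKM. Of 18 genes shared by myeloid cells, 15 were listed, and 13 of them were above without overlap and 0 below, against the 19.4% of all genes given above. Their median log2 fold change was 0.48, and that of the 11 resident macrophage genes was 0.36. Mpeg1, a pore-forming protein of phagosomes, had 12.0 and 12.4 FPKM with an MSM mother and 23.1 and 17.5 FPKM with a B6 mother, and Laptm5, a lysosomal membrane protein, had 4.49 and 4.85 FPKM and then 10.5 and 6.50 FPKM. In contrast, Lcp1 (30.2 to 38.5 FPKM) and Lgmn (24.5 to 30.9 FPKM) overlapped. Limma called 0 of these 26 genes at an adjusted p-value under 0.05, and 14 of 26 had an unadjusted p-value under 0.05, against 0.0455% and 8.87% of all genes. Vsig4, Timd4 and the endothelial gene Cdh5 were named after their values had been seen.

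**Figure D2:**
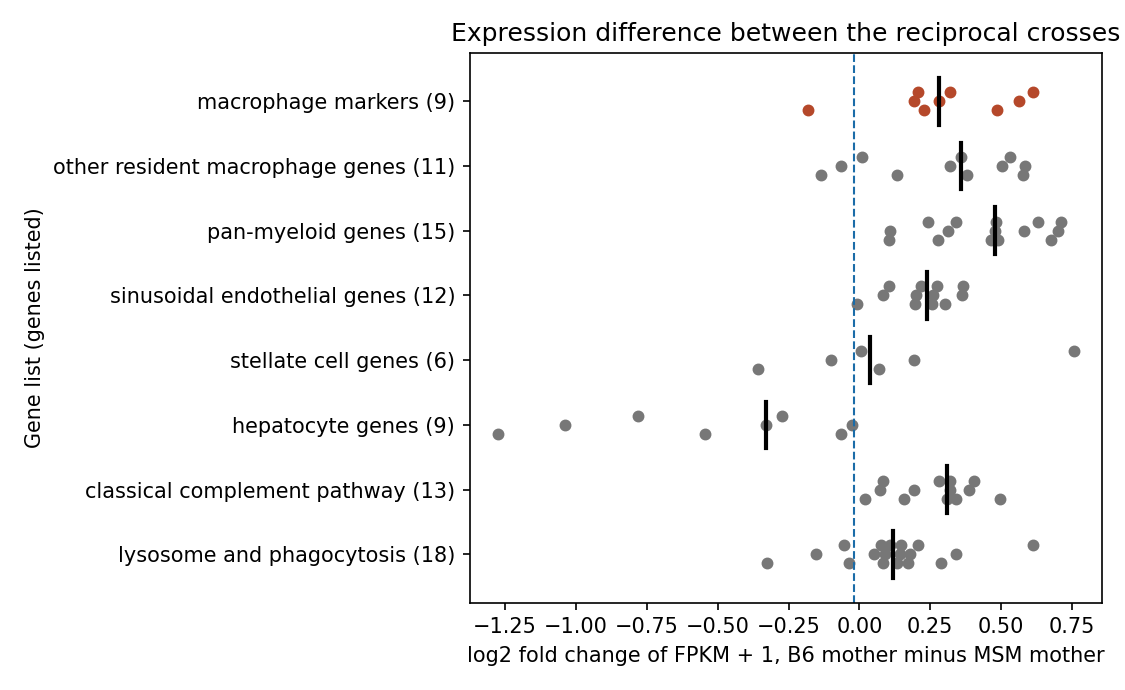
Log2 fold change of FPKM + 1 between the crosses (x axis, B6 mother minus MSM mother) for each listed gene of 8 gene lists (y axis, number of listed genes in brackets); a black bar is the median of a list, the dashed line the median of all genes (-0.02), and Cyp2e1, at 12.46, is left off the hepatocyte row. The macrophage markers have a median of 0.28 and the pan-myeloid genes of 0.48, and 8 of the 9 hepatocyte genes are negative.

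The pathways around the markers were described in the same way. In the classical complement pathway 13 of 15 genes were listed, and 10 were above without overlap, 0 below, with a median log2 fold change of 0.31 (for all genes, 19.4% above, 23% below and a median of -0.02, which also stand beside the lists that follow). All 13 were positive, including C1qa, C1qb and C1qc themselves. C1ra and C1s1, the hepatocyte-made proteases that associate with C1q, had 104.6, 95.1, 126.7 and 122.7 FPKM and 99.8, 98.7, 110.9 and 110.8 FPKM in the order of replicates 1 and 2 with an MSM mother and then with a B6 mother. In the CSF1 receptor axis 11 of 15 genes were listed, with 6 above and 2 below. The ligand Csf1 had 2.44 and 2.28 FPKM with an MSM mother and 3.70 and 3.13 FPKM with a B6 mother. Csf1 and Irf8, both among the 6 above, had means of 2.36 and 2.43 FPKM with an MSM mother. The lowest mean of any listed gene was 2.50 FPKM, so both were listed only through their mice with a B6 mother, and the count above is partly set by the listing. Cebpb, a transcription factor, was among those below, with 46.8 and 36.5 FPKM and then 11.0 and 19.9 FPKM (log2 fold change -1.42, limma adjusted p = 0.340). Cebpb is also abundant in hepatocytes. In hemoglobin and heme clearance all 10 genes were listed, and 1 was above and 2 below, with a median of -0.13. Among 18 lysosomal and phagocytic genes 6 were above and 2 below (median 0.12), and the highest of them, Ctsl, had 470.4 and 406.8 FPKM and then 332.6 and 364.9 FPKM. Among the scavenger receptors 7 of 8 were listed, with 4 above and 1 below (median 0.32). These lists also hold markers counted before, so they are not separate from the marker set. Csf1r, Cd68 and Cd5l were among the genes above, and Cd163 and Lyz2 among those that overlapped.

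Markers of other liver cells also differed between the mice. Of 12 sinusoidal endothelial genes, which mark the cells that Kupffer cells adhere to, all 12 were listed, and 8 were above without overlap and 0 below, with a median of 0.24, against 19.4% above, 23% below and a median of -0.02 for all genes. Their summed level was 255.8 and 244.9 FPKM with an MSM mother and 283.9 and 282.7 FPKM with a B6 mother. Clec4g and Fcgr2b, the highest of them, overlapped between the crosses, whereas Cdh5, the cadherin of endothelial junctions, did not (7.56 and 8.33 against 11.7 and 9.40 FPKM). Of 10 hepatocyte genes 9 were listed, and 6 were below (23% of all genes) and 1 above (19.4%), with a median of -0.33. Their summed level was 40801, 35896, 31589 and 39932 FPKM in the same order of mice, and Alb was not listed. The sums overlapped only through Cyp2e1, the 1 gene above. It was listed at 0 in both mice with an MSM mother, where reads were nevertheless assigned to it, and at 4876 and 6541 FPKM with a B6 mother. Without Cyp2e1 the sums were lower in both mice with a B6 mother than in both with an MSM mother. Of 6 erythroid genes 4 were listed, and 2 were above without overlap (Hba-a2 and Hbb-bs) and 0 below. Hba-a1 and Alas2 overlapped between the crosses, with log2 fold changes of -0.23 and -0.00198. The erythroid sum was 308.2 and 128.4 FPKM with an MSM mother and 769.4 and 449.1 FPKM with a B6 mother. Hba-a2 was the highest of the 4 genes, so the sum does not stand for each of them. Stellate cell genes (6 of 11 listed) had 2 above and 1 below, and cholangiocyte genes (2 of 7 listed) had 0 above and 1 below. The defining markers of recruited myeloid cells and lymphocytes were largely not listed. The lowest mean of any listed gene was 2.50 FPKM, so a gene that is not listed may still be expressed at a low level. Of 10 monocyte and recruited macrophage genes 2 were listed (Cd9 and Lgals3, without Ccr2, Ly6c2 or Cx3cr1), of 10 lymphocyte genes 1 (Ccl5), and of 6 neutrophil genes 0. Ccl5, a chemokine of T and NK cells, had 3.14 and 2.07 FPKM with an MSM mother and 5.30 and 5.61 FPKM with a B6 mother (log2 fold change 0.86), and Lgals3 was also above without overlap (log2 fold change 0.49). Like the summed macrophage markers, Ccl5 and the endothelial and erythroid sums were higher in both mice with a B6 mother than in both with an MSM mother, and their part in the result was not tested.

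The allele balance of the markers was strongest at Lyz2. Its B6-allele frequency was 0.868 and 0.910 with an MSM mother, against 0.914 and 0.864 with a B6 mother, so all 4 mice lay above 0.8 whichever parent was B6. The mean of the crosses was 0.889 ± 0.0266 (SD over 4 mice), the 32nd highest of 3632 genes. On the log2 odds scale Lyz2 was at 3.03 (SE 0.19, 95% interval 2.45 to 3.60, limma adjusted p = 0.00523), where 0 is equal use of both alleles. Of all genes with a frequency, 36.2% were called for imbalance by this limma test, 22.6% toward B6 and 13.6% toward MSM, and 1.84% had a mean of at least 0.8. Multiplying FPKM by the frequency, 33.4 ± 4.73 FPKM of Lyz2 came from the B6 allele and 4.30 ± 1.66 FPKM from the MSM allele, 7.76-fold apart. Between the crosses the log2 odds differed by 0.01 (SE 0.38, 95% interval -1.14 to 1.16, limma adjusted p = 1).

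Lyz1, the second lysozyme gene, lies 5476 bases from Lyz2 at chr10:117287797-117292868 on the same strand, and its balance was the opposite. The frequency was 0.0435 and 0.0519 with an MSM mother, against 0.0379 and 0.0358 with a B6 mother, with a mean of 0.0423 ± 0.0072. Its log2 odds of -4.52 (SE 0.07, limma adjusted p = 4.36e-04) was called toward MSM, and 1.35% of all genes had a mean of at most 0.2. Lyz1 had 12.0 and 12.0 FPKM with an MSM mother and 11.0 and 14.7 FPKM with a B6 mother, of which 0.522 ± 0.0839 FPKM came from the B6 allele and 11.9 ± 1.56 FPKM from the MSM allele, 22.8-fold apart. In total, Lyz2 made 76.8% and 71.7% of the FPKM of the pair with an MSM mother, against 76.4% and 75.4% with a B6 mother. With both genes added, the B6 fraction was 0.676 and 0.666 with an MSM mother, against 0.707 and 0.660 with a B6 mother. As assigned, reads of the B6 allele were mostly at Lyz2 and those of the MSM allele mostly at Lyz1, and the B6 share of the sum was the larger in every mouse.

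Both lysozyme genes can share reads. The aligned reference transcripts were identical at 1211 of 1262 bases (96.0%). Of the windows of 50 bases in the Lyz2 transcript 15.4% were also in Lyz1, of those of 100 bases 1.97%, and of those of 150 bases, the length of a read, 0%. The authors kept 1 alignment per read on a genome masked at known SNPs, so an MSM read that differs from the reference in either gene can be placed at the other, and the values of the pair are uncertain to that extent. The part of such placement in the frequencies was not tested. Other markers shared no window of 100 bases with another gene. The further neighbours of Lyz2 did not share its frequencies: Yeats4, 52824 bases away, had a mean of 0.511 ± 0.0158, Cpsf6 at 62352 bases had 0.549 ± 0.0107, and Frs2 at 128797 bases had 0.642 ± 0.0766, all without overlap with Lyz2. Of these, Cpsf6 was called toward B6 (limma adjusted p = 0.0293), and Frs2 missed the threshold (limma adjusted p = 0.0663).

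**Figure D3:**
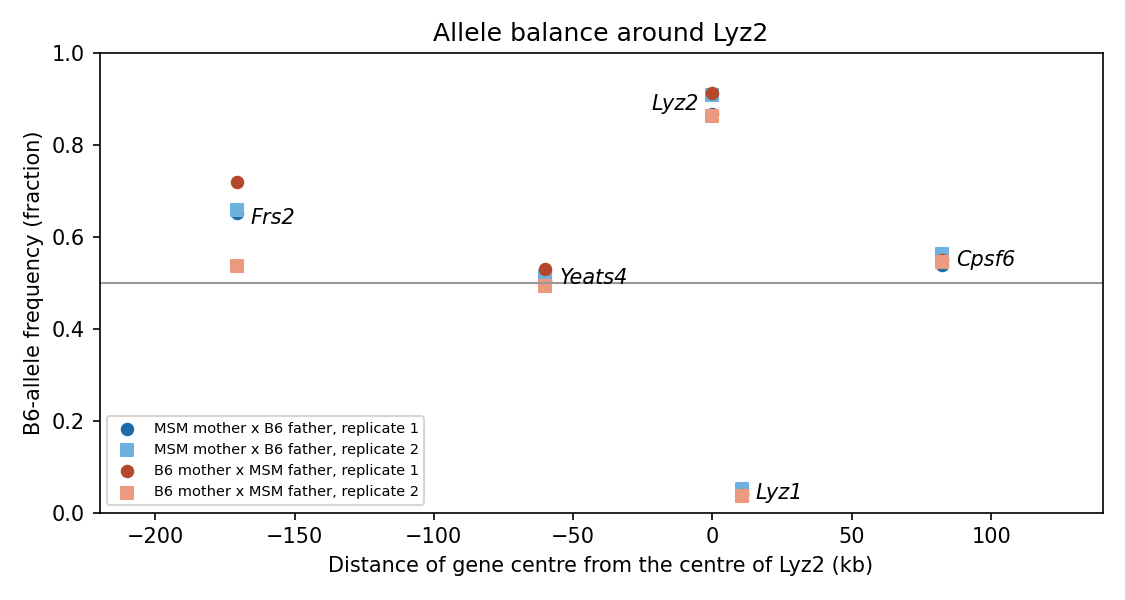
B6-allele frequency (y axis, fraction of allele-assigned reads) of the genes with a frequency within 200 kb of Lyz2, against the distance of the gene centre from that of Lyz2 (x axis, kb); each point is a mouse and the line at 0.5 is equal use of both alleles. Lyz2 (mean 0.889) and Lyz1 (mean 0.0423) lie at opposite ends, and Yeats4 and Cpsf6 lie near 0.5 in every mouse.

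Csf1r was tilted modestly toward B6. Its frequency was 0.602 and 0.556 with an MSM mother, against 0.572 and 0.595 with a B6 mother, above 0.5 in all 4 mice, with a mean of 0.581 ± 0.0212. On the log2 odds scale it was at 0.47 (SE 0.07, 95% interval 0.26 to 0.69, limma adjusted p = 0.0223), a call that was lost when any 1 of the 4 mice was left out (limma adjusted p = 0.0557 to 0.120). By allele, 9.31 ± 2.33 FPKM came from B6 and 6.71 ± 1.73 FPKM from MSM, 1.39-fold apart. The allele balance of Csf1r differed between the crosses by 0.02 in log2 odds (SE 0.14, 95% interval -0.41 to 0.46, limma adjusted p = 0.997), while the FPKM from either allele was higher in both mice with a B6 mother: 7.72 and 7.01 against 11.9 and 10.6 FPKM for the B6 allele, and 5.10 and 5.60 against 8.92 and 7.21 FPKM for the MSM allele. Hmgxb3, which overlaps the end of Csf1r in the annotation, had a mean frequency of 0.514 ± 0.0487, and Ppargc1b, 165987 bases away, had 0.526 ± 0.0552.

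Cd163 was close to equal, with 0.517 and 0.490 with an MSM mother, against 0.468 and 0.562 with a B6 mother. The mean of 0.509 ± 0.0404 gave log2 odds of 0.05 (SE 0.12, 95% interval -0.30 to 0.40, limma adjusted p = 0.747), and the crosses differed by 0.07 (SE 0.23, 95% interval -0.64 to 0.77, limma adjusted p = 0.985). In FPKM, 3.17 ± 0.589 came from B6 and 3.06 ± 0.605 from MSM. Cd163 has complement genes as neighbours: C1ra, 181878 bases away, had a mean of 0.419 ± 0.0131 and was called toward MSM (limma adjusted p = 0.0089), and C1s1, 199818 bases away, had 0.623 ± 0.00776 and was called toward B6 (limma adjusted p = 0.00489). Pex5 and C1rl, which lie between, had 0.478 and 0.524 and were not called by limma. In sum, limma called 2 of the 3 markers with a frequency for imbalance, against 36.2% of all genes, and for a difference between the crosses 0 of 3, against 0.0826% of all genes. At an unadjusted p-value under 0.05 the same limma test had 0 of 3 markers and 5.23% of all genes. For Clec4f, Cd5l, the C1q genes and Cd68 neither the gene nor any listed gene within 200 kb had a frequency.

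**Figure D4:**
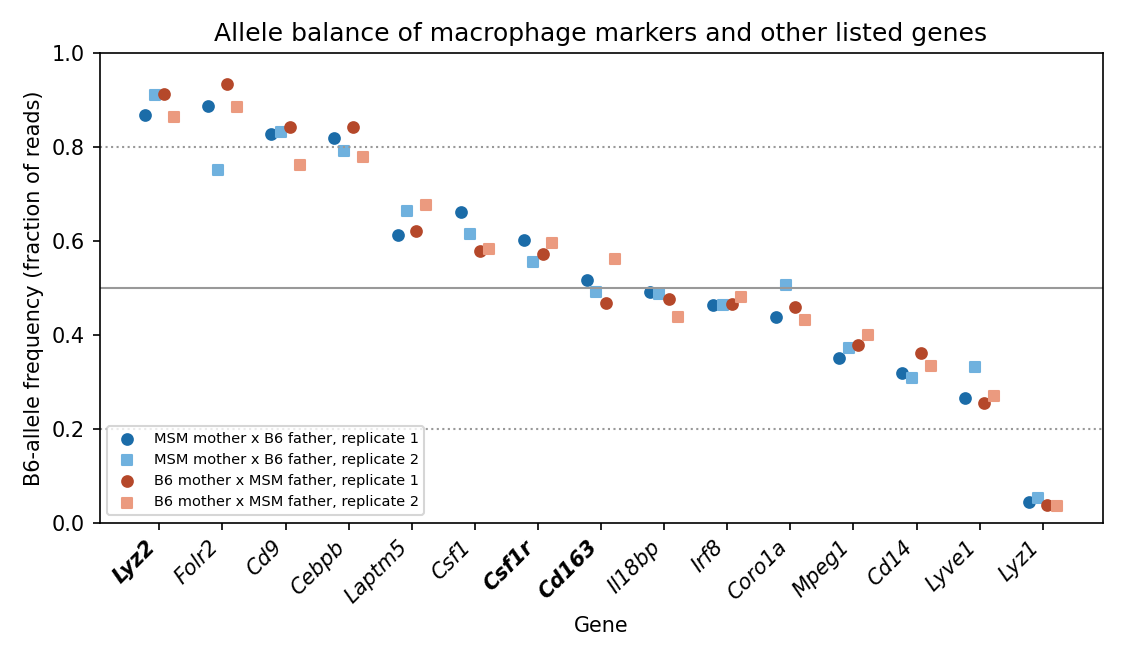
B6-allele frequency (y axis, fraction of allele-assigned reads) in each of the 4 mice for the 3 markers with a frequency (bold names) and 12 other genes. These 12 were selected from the macrophage, myeloid, CSF1 receptor axis, endothelial and lysosomal lists, and other genes with a frequency, such as Lgmn and Cyba, are not shown. The line at 0.5 is equal use of both alleles and dotted lines mark 0.8 and 0.2. Lyz2 lies between 0.864 and 0.914 and Lyz1 between 0.0358 and 0.0519, with Csf1r and Cd163 near the middle.

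Among the other macrophage and myeloid genes, 8 had a frequency, and limma called 4 toward B6 (Folr2, Laptm5, Lgmn and Cyba) and 2 toward MSM (Mpeg1 and Cd14), against 22.6% and 13.6% of all genes. Folr2, a folate receptor of resident macrophages (chr7:101839988-101857194), came closest to Lyz2, with 0.886 and 0.750 with an MSM mother, against 0.934 and 0.885 with a B6 mother. Its mean was 0.864 ± 0.0794 and its log2 odds 2.83 (SE 0.32, limma adjusted p = 0.0128), and the call was lost without either mouse with a B6 mother (limma adjusted p = 0.0821 and 0.0755). Laptm5 was also tilted toward B6, with a mean of 0.643 ± 0.0312 (limma adjusted p = 0.0137). Mpeg1, with 0.351, 0.371, 0.379 and 0.400, was tilted toward MSM (log2 odds -0.74, SE 0.05, limma adjusted p = 0.00626), as was Cd14, the co-receptor for bacterial lipopolysaccharide, with a mean of 0.330 ± 0.0237 (log2 odds -1.02, SE 0.06, limma adjusted p = 0.00476). Csf1, the ligand of Csf1r, had a mean of 0.609 ± 0.0389 (limma adjusted p = 0.0117), so the receptor and the ligand were both called toward B6. Lgmn and Cyba were close to equal, with means of 0.545 and 0.536.

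Across the 4 mice, the profile of the C1q genes was compared with that of every listed gene, by the distance between log2(FPKM + 1) values centred on each gene's mean. Genes outside the marker set with the nearest profiles were Mcl1 at a distance of 0.0427, Lipa at 0.0434, Cyp2c44 at 0.0459, Serpinb9 at 0.0483 and Cxadr at 0.0491. Lipa, the lysosomal acid lipase, had 92.5 and 74.8 FPKM with an MSM mother and 107.2 and 96.6 FPKM with a B6 mother. Clec4f ranked 172nd of 8797, ahead of Cd5l (1914th), Csf1r (2566th), Lyz2 (2867th) and Cd68 (3073rd), and Cd163 ranked 7978th. A profile over 4 mice is short, and many genes come near it.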

How the data were processed

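Liver poly(A) RNA of 4 mice was analysed, and groups and replicate numbers came from the sample titles. After trimming (Trim Galore) and alignment (TopHat2, 1 alignment per read, library strand set) to an mm10 genome in which SNP sites were masked, the authors deposited an FPKM value per gene and mouse. The authors also deposited a fraction, the B6-allele frequency, made by separating reads by allele with SNPsplit and counting them with Cuffdiff. Tool versions were not given in the sources used here. Read counts are not part of the deposited values, so their depth is unknown and no interval for a single frequency was computed. Whether the mice of a cross came from separate litters was not stated, and p-values measure only the spread between these mice.

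Each mouse had the same 8797 genes, with FPKM summing to 529024 to 671875, 15 to 27 genes listed at 0, and correlations of log2(FPKM + 1) across genes between mice of 0.961 to 0.978. Expression was tested with limma 3.58.1 in R 4.3.3 on log2(FPKM + 1) with a variance trend, with a filter at a mean FPKM of 1 that all genes passed. This scale understates the change of low genes. The lowest mean of a listed gene was 2.50 FPKM, and percentiles of FPKM are ranks among the listed genes only. Timd4, Csf1, Irf8 and the stellate gene Hgf had a lower mean than this with an MSM mother, and were listed only through their mice with a B6 mother. Allele balance was tested with limma on log2 odds of frequencies limited to 0.01 to 0.99, with the mean of both crosses against 0 and the cross as a second term. Tests were two-sided, adjusted by Benjamini-Hochberg over all genes, at 0.05. The fits were also run on simulated data. The planted expression changes were larger than those of the markers, so differences of the size seen here were not covered. Groups were also compared by overlap of their values. Positions came from GENCODE M21 (mm10), and promoters from RefSeq (GRCm38.p6). Python 3.11.15, numpy 2.4.6, pandas 2.3.3, Biopython 1.88 and matplotlib 3.10.9 were used. A planned comparison of frequencies between C1q subunits could not be made, since these genes have no frequency.

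The markers and the other gene lists were chosen with earlier results of these data known. Named were all markers, of each other list the genes called in any limma test (at most 6) and the 3 with the highest mean FPKM, up to 4 genes with a frequency within 200 kb of a marker, and the 5 nearest profiles. The text gives only some of the genes under this rule. Other pseudocounts, filters, scalings, limits, a replicate block and leaving out single mice were tried as alternatives.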

Additional observations from a re-analysis of the deposited data

How the results depend on the processing

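With 2 mice per cross and no read counts, small differences cannot be resolved and the precision of a single value is unknown. The scaling and omission alternatives for the markers above without overlap were chosen after seeing the data. Neither scaling moved the median of all genes by over 0.1. Limma called 4 genes for expression, and 13 to 23 without 1 mouse. It called 1316 genes for imbalance, and 181 to 514 without 1 mouse, with 1 marker (Lyz2) in place of 2. Shifting each mouse to a median log2 odds of 0 gave 705 genes toward B6 and 604 toward MSM, against 822 and 494. Limma called 3 genes for a frequency difference between crosses, 1 with limits of 0.001, and 0 to 6 without 1 mouse (135 to 275 at an unadjusted p under 0.05). The cause of these changes in count was not tested.

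Directions turned for some values near 0, none of which limma called. Leaving out 1 mouse, the log2 fold change of Cd163 ranged from -0.38 to 0.016 and that of Lyz1 from -0.11 to 0.27. The log2 odds of Cd163 ranged from -0.083 to 0.19, and were -0.0034 after the shift. The cross difference in log2 odds ranged from -0.11 to 0.16 for Csf1r, turning also at -0.04, from -0.21 to 0.34 for Cd163, turning also at -0.01, and from -0.36 to 0.38 for Lyz2, turning also at -0.30. Beside these, 214 alternatives for single genes kept direction and side of the threshold, 7 lost a call and 1 gained one. For summaries, which are counts, 56 alternatives gave the same or a similar count and 20 moved.

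The main fits did not pair the samples by replicate number. Deviations of equal numbers correlated at 0.00375 for expression and 0.146 for log2 odds. These come from 2 pairs, too few to tell whether the numbers pair the mice. With a replicate block, limma called 285 genes for expression (152 higher), with 1 marker, Cd68 (adjusted p = 0.0137). For imbalance the block called 775 genes and 1 marker, Lyz2, and Csf1r was lost (limma adjusted p = 0.068). The number of genes called for a frequency difference between crosses was 2.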
